A study of Mus musculus with 9 samples.

Results

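Members of the first wave of embryonic transcription outside the large multi-copy families, 8 genes in all, were followed through 9 mouse embryo transcriptomes: Zfp352, Zfp353-ps, Arg2, Nelfa, Spz1, Ddit4l, Lmx1a and Sp110. They were taken by symbol, and all 8 were found among the 19359 genes of the table. A library held the poly(A) RNA of 3 pooled embryos collected 34 h post fertilization, and every group had libraries A, B and C. The LPN group had a later pronuclear transfer, in which the pronuclei of a zygote are moved into another cytoplast. The EPN group had the same procedure early, and the SPN group had a sham transfer and is the control. The protocol text is shared by all 9 libraries and describes B6D2F1 females of 8 to 12 weeks primed with PMSG and hCG, and selective enucleation of germinal vesicle oocytes. Genotype of the sires, the clock times of the procedures and which enucleation step belongs to which group are not stated in the labels. Nothing says that the pools came from separate days or matings, so p-values measure the spread between these libraries, which may be technical. In pooled embryos, a lower level in every embryo and fewer embryos at a given stage cannot be told apart.

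In the mouse, the embryonic genome is first transcribed in late zygotes and in 2-cell embryos, while RNA stored by the oocyte is degraded. The first wave is short, and many of its transcripts start in or near long terminal repeats of the MERVL retrotransposon family or are activated by the homeobox factor Dux. Zfp352 encodes a C2H2 zinc finger protein and is one of the most used markers of this wave. Zfp353-ps is a related pseudogene. Arg2 encodes the mitochondrial arginase, Nelfa a subunit of the negative elongation factor that holds RNA polymerase II near promoters, and Ddit4l an inhibitor of mTORC1 signalling. Spz1 encodes a leucine zipper factor known from the testis, Lmx1a a LIM homeobox factor known from the dorsal neural tube and midbrain, and Sp110 a nuclear body protein of the SP100 family.

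The sequences show how separate these genes are from their relatives. In the GENCODE vM21 transcripts (GRCm38), Zfp353-ps, a processed pseudogene on chromosome 8, aligned without gaps to Zfp352, on chromosome 4, over 1650 bases with 80 differences, an identity of 95.2%. The stretch from base 7 to base 126 of the Zfp352 open reading frame, counted from its first base, is shown with the 9 differing bases in capitals.
Zfp352: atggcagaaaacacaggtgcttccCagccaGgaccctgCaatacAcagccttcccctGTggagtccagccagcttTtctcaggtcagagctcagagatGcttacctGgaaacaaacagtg
Zfp353-ps: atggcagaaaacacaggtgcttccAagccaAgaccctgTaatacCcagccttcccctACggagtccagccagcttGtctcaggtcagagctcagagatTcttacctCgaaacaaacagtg
None of the 1501 windows of 150 bases, the read length, was without a difference, and the median window held 7. The longest stretch without a difference had 113 bases. How the authors counted reads is not stated in the labels, so the split of reads between Zfp352 and Zfp353-ps remains uncertain.

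The label of single-copy genes held for some members and not for others. Of all 50-base words in the transcripts of a member, the share that also occurred in another gene was 0% for Spz1, 0.0598% for Lmx1a, 0.175% for Ddit4l and 0.282% for Nelfa. It was 7.09% for Zfp352 and 8.74% for Zfp353-ps, mostly words shared between this pair. Sp110 shared 42.3% of its words, chiefly with Gm16026, Gm15753 and other genes of its family, so its value may hold reads of copies. Arg2 shared 21.2% of its words, 4.06% with Gm48780 and 17.1% with Vti1b, a gene on the opposite strand whose end overlaps that of Arg2. The library kit named in the labels does not mark strand, so reads of this overlap cannot be assigned to either gene. Vti1b itself was low, at 8.93 to 39.5 CPM (reads scaled to a common total per library).

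Promoters were available for 6 of the 8 members, each from 250 bases before the annotated start to 50 bases after it (RefSeq, GRCm38.p6). The core of the Dux motif, GATTNAATC, was in none of them, against 0.252% of 32544 promoters with distinct sequences. The TATA box letters TATAAA were in that of Ddit4l, against 13.6% of promoters, at position 35 after the start, and the letters CCAAT in both starts of Sp110, against 37.4%. Both strands were searched, and positions count the first base of a match from the start. Zfp352 and the first start of Sp110 are printed because they shared letters that were noticed on reading them, after which the motifs TTAATC and TATAAGG were searched. Capitals mark both motifs. The windows are chr4:90218570-90218869 on the plus strand and chr1:85603842-85604141 on the minus strand of GRCm38.p6.
Zfp352: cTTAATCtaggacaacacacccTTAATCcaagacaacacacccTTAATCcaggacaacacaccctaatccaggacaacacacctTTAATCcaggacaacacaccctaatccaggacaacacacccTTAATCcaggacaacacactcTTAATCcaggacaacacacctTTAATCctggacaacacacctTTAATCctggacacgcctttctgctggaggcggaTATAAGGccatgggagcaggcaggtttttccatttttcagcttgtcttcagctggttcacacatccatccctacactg
Sp110: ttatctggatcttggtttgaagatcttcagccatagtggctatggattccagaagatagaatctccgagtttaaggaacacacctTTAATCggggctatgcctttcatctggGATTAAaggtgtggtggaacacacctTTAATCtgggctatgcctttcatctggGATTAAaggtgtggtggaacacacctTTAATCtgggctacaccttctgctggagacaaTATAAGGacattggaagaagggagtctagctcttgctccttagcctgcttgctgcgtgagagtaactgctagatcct
The Zfp352 window held 8 copies of TTAATC, from position -249 to position -62, and TATAAGG at position -28. The Sp110 window held 5 copies of TTAATC, 3 of them on the sense strand, and TATAAGG at position -27. At least 3 copies of TTAATC were in 0.086% of all promoters, TATAAGG in 2.17%, and both together in 17 of these 32544 distinct sequences. Neither motif was in the windows of Nelfa, Spz1, Ddit4l or Lmx1a, and the second start of Sp110 held 1 TTAATC. A match of letters is a description and not a bound site, and since the motifs were picked from these windows their rarity supports nothing.

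The table was deep for these genes. Library totals ran from 7611781 to 15559218 reads, so that 1 read was 0.0643 to 0.131 CPM. Every member was read at least 88 times in every library, the lowest value being Lmx1a in LPN B and the highest, 12921 reads, Zfp352 in LPN C. All 8 passed the filter on low values (1 CPM or more in 3 or more libraries), which left 14876 genes for testing. As a check of the label, 7 of 7 oocyte markers and 7 of 7 markers of 2-cell embryos were present in every group. Summed oocyte markers were at 1232 to 1876 CPM in LPN, 2060 to 2587 CPM in EPN and 2707 to 3444 CPM in SPN. Oosp1 made up much of this sum, at 959 CPM on average in LPN and 1988 CPM in SPN. The markers did not all go the same way. With limma, 4 of the 7 were called lower in LPN against SPN, 1 higher and 2 not, beside 5.54% of all tested genes called lower and 3.26% higher. Summed 2-cell markers were at 3681 to 5876 CPM in LPN, 2999 to 4715 CPM in EPN and 1450 to 2645 CPM in SPN. Their part in the results below was not tested. Marker sums of cumulus and granulosa cells (4 of 8 genes used) ran to 19.1 CPM in LPN, 23.7 CPM in EPN and 12.7 CPM in SPN, with Foxl2 at 0 in every library. Sperm markers (4 of 6 genes) summed to at most 6.62 CPM in LPN, 6.95 CPM in EPN and 12.3 CPM in SPN. Blood markers (3 of 6 genes) summed to at most 30.8 CPM in LPN, 85.0 CPM in EPN and 100.4 CPM in SPN, and blastocyst markers (4 of 5 genes) to at most 34.9 CPM in LPN, 82.4 CPM in EPN and 74.9 CPM in SPN.

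The pair Zfp352 and Zfp353-ps gave the clearest differences. Zfp352 had 712, 643 and 1082 CPM in LPN A, B and C, 603, 708 and 653 CPM in EPN, and 559, 288 and 291 CPM in SPN. All 6 libraries of transferred embryos lay above all 3 sham libraries, and SPN A lay closer to the EPN libraries than to SPN B and SPN C. Zfp352 rose 2.19-fold in LPN against SPN, with 813 ± 236 CPM in LPN and 379 ± 156 CPM in SPN (SD, n = 3 each; log2 change 1.13, SE 0.29, limma adjusted p = 0.0152). In EPN, at 655 ± 52.9 CPM, it stood 1.81-fold above SPN, a difference that did not pass (log2 change 0.86, SE 0.29, adjusted p = 0.253).

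Zfp353-ps had 147, 287 and 258 CPM in LPN, 136, 141 and 131 CPM in EPN, and 78.3, 39.2 and 36.7 CPM in SPN. The 3 groups did not overlap, in the order LPN, EPN, SPN, though LPN A lay close to EPN. It rose 4.51-fold in LPN against SPN (231 ± 74.0 CPM in LPN and 51.4 ± 23.3 CPM in SPN; log2 change 2.17, SE 0.33, limma adjusted p = 0.000444), and by p-value stood at rank 6 of all tested genes. In EPN, at 136 ± 4.69 CPM, it was 2.77-fold above SPN and just missed the threshold (log2 change 1.47, SE 0.33, adjusted p = 0.0648).

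**Figure D1:**
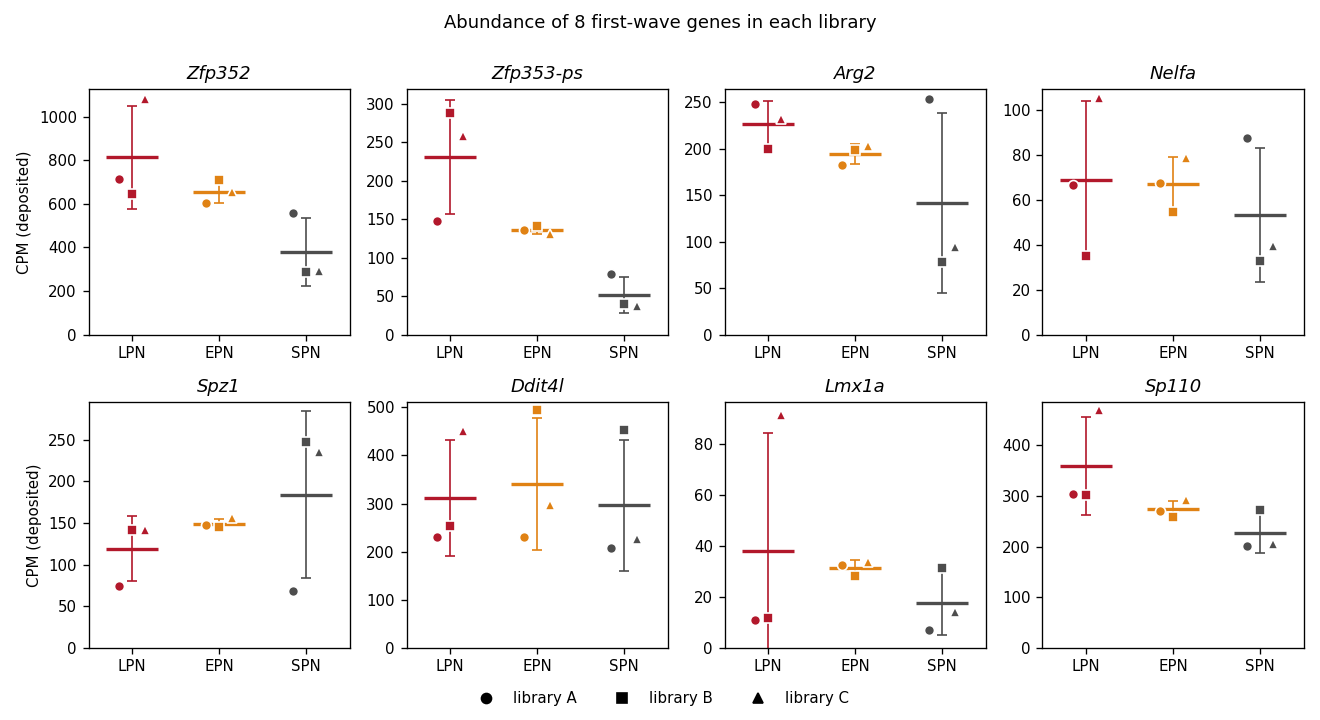
CPM as deposited (y axis, linear, from 0) of each of the 8 genes in the 9 libraries, grouped as LPN, EPN and SPN on the x axis, with the group mean (bar) and SD (whisker, ended at 0 where it would run below it) and the library letter as symbol. In the panels of Zfp352 and Zfp353-ps all transferred libraries lie above all sham libraries, and in those of Arg2, Nelfa and Spz1 SPN A lies far from SPN B and SPN C.

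Because the members of this pair are alike in sequence, the ratio of their reads was also taken, which does not depend on library scaling. Zfp353-ps reads were 20.7%, 44.7% and 23.9% of Zfp352 reads in LPN A, B and C, 22.5%, 19.9% and 20.1% in EPN, and 14.0%, 13.6% and 12.6% in SPN. The share was nearly the same in the 3 sham libraries, SPN A included, and higher in each of the 6 transferred libraries. The means were 29.7% ± 13.0 in LPN, 20.8% ± 1.48 in EPN and 13.4% ± 0.703 in SPN (SD, n = 3 each). The exact two-sided permutation p of the log2 share was 0.1 for LPN against SPN and 0.1 for EPN against SPN, the smallest that 3 against 3 libraries allow, and 0.2 for LPN against EPN.

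**Figure D2:**
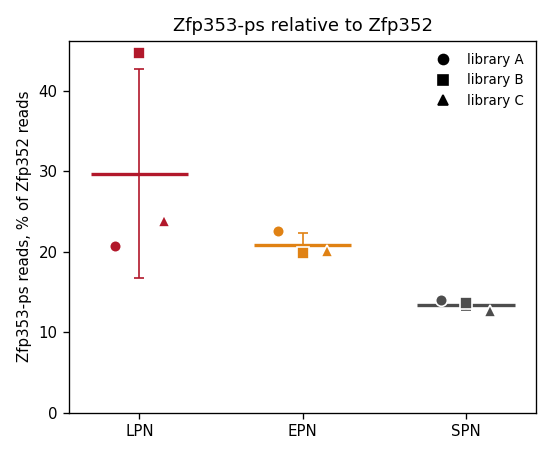
Reads of Zfp353-ps as a percent of Zfp352 reads in each library (y axis, from 0), by group, with the mean (bar) and SD (whisker) of 3 libraries and the library letter as symbol. The sham libraries lie between 12.6% and 14.0%, the transferred ones between 19.9% and 44.7%.

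Among the enzyme and signalling genes, Arg2 had 248, 199 and 232 CPM in LPN, 182, 198 and 203 CPM in EPN, and 254, 77.9 and 94.0 CPM in SPN. SPN A was the highest of all 9 libraries, while SPN B and SPN C were the lowest. With all libraries Arg2 did not pass in LPN against SPN (log2 change 0.87, SE 0.33, 95% interval 0.20 to 1.54, limma adjusted p = 0.0872) or in EPN against SPN (log2 change 0.66, SE 0.33, adjusted p = 0.464).

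Nelfa showed a like arrangement at lower levels, with 66.8, 34.9 and 105 CPM in LPN, 67.7, 54.8 and 79.0 CPM in EPN, and 87.6, 32.6 and 39.7 CPM in SPN. LPN B fell among the low sham libraries and SPN A among the high transferred ones, so the groups overlapped. Its log2 change was 0.37 in LPN against SPN (95% interval -0.43 to 1.16, limma adjusted p = 0.577) and 0.45 in EPN against SPN (95% interval -0.35 to 1.24, adjusted p = 0.705). These intervals include a rise of more than 2-fold as well as no change.

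Ddit4l had 231, 252 and 450 CPM in LPN, 231, 494 and 297 CPM in EPN, and 208, 453 and 227 CPM in SPN. Each group held 1 high library beside 2 lower ones, and the group means of 311 ± 121 CPM in LPN, 341 ± 137 CPM in EPN and 296 ± 137 CPM in SPN differed by less than their SDs (n = 3 each). The log2 change was 0.10 in LPN against SPN (95% interval -0.57 to 0.76) and 0.22 in EPN against SPN (95% interval -0.45 to 0.89), with limma adjusted p = 0.885 and 0.842.

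Among the transcription factors and nuclear proteins, Spz1 ran opposite to Arg2. It had 73.7, 142 and 141 CPM in LPN, 147, 145 and 155 CPM in EPN, and 68.0, 247 and 236 CPM in SPN. SPN B and SPN C were the highest 2 libraries and SPN A the lowest of all 9, beside LPN A. Spz1 did not pass in LPN against SPN (log2 change -0.47, SE 0.37, limma adjusted p = 0.424) or in EPN against SPN (log2 change -0.09, SE 0.37, adjusted p = 0.955).

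Lmx1a, the member with the fewest reads, had 10.9, 11.6 and 91.6 CPM in LPN, 32.7, 28.1 and 33.6 CPM in EPN, and 7.02, 31.5 and 14.0 CPM in SPN. LPN C stood far above every other library, and EPN was even while both other groups were spread. The log2 change was 0.61 in LPN against SPN (95% interval -0.56 to 1.78, limma adjusted p = 0.518) and 1.04 in EPN against SPN (95% interval -0.13 to 2.21, adjusted p = 0.51).

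Sp110 had 304, 301 and 471 CPM in LPN, 271, 259 and 292 CPM in EPN, and 202, 272 and 206 CPM in SPN. The 3 LPN libraries lay above all others, with LPN C apart, and SPN B lay inside the EPN range. It did not pass in LPN against SPN (log2 change 0.64, SE 0.28, 95% interval 0.08 to 1.20, limma adjusted p = 0.128) or in EPN against SPN (log2 change 0.28, SE 0.28, adjusted p = 0.729). DESeq2 on the recovered reads called Sp110 in LPN against SPN (log2 change 0.83, DESeq2 adjusted p = 0.014). Of the 136 genes that share words with Sp110, only those sharing the most were looked up. Those of them in the table also did not pass in LPN against SPN, with log2 changes of 0.80 for Gm15753 (limma adjusted p = 0.0917), 0.48 for C130026I21Rik (0.256) and 0.78 for A530040E14Rik (0.107).

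Counted together, 2 of the 8 members passed in LPN against SPN, both higher, where 8.8% of all tested genes passed, 3.26% with LPN higher and 5.54% with LPN lower. There 4 members had an unadjusted limma p under 0.05, against 26.9% of all genes. None passed in EPN against SPN, where 0.108% of all genes did (0.0739% with EPN higher, 0.0336% with EPN lower). An unadjusted limma p under 0.05 was found for 2 members, and for 11% of all genes. On the recovered reads edgeR called 1 member and DESeq2 3 in LPN against SPN, beside 477 and 1890 of all 14876 genes. In EPN against SPN edgeR called 0 members and DESeq2 1, beside 0 and 116 of all 14876 genes. Groups did not overlap for 3 members in LPN against SPN, all higher (Zfp352, Zfp353-ps and Sp110), against 27.5% of all genes, 11.3% with LPN higher and 16.2% with LPN lower. In EPN against SPN this held for Zfp352 and Zfp353-ps, both higher, against 14.6% of all genes, 7.07% with EPN higher and 7.56% with EPN lower. The median log2 change of the 8 members was 0.63 in LPN against SPN and 0.55 in EPN against SPN, where that of all tested genes was -0.17 and -0.07. Measured from these medians of all genes, Zfp352 changed by 1.30 and Zfp353-ps by 2.34 in LPN against SPN. Both comparisons use the same sham libraries, so a low or high sham level moves both.

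**Figure D3:**
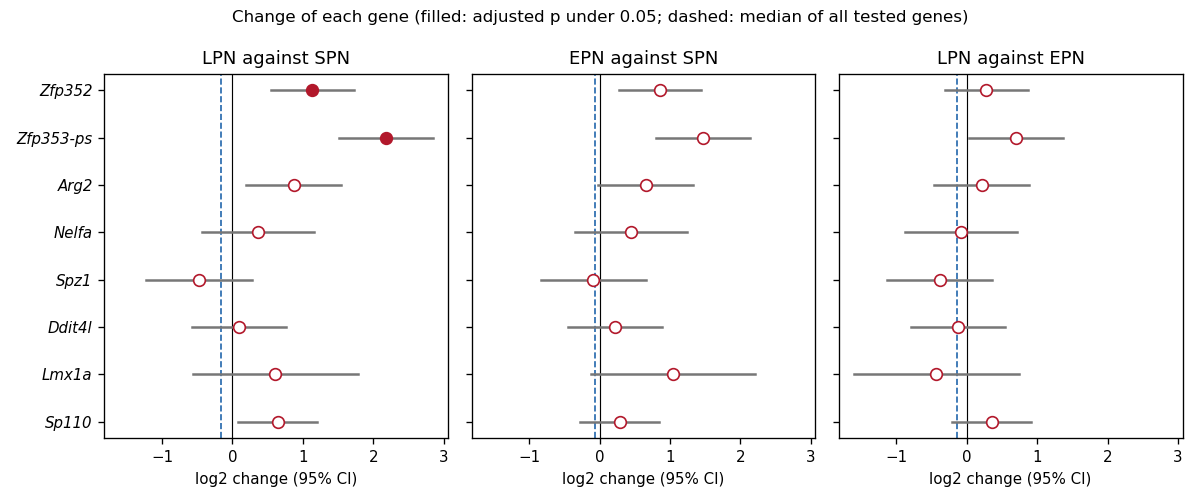
Log2 change of CPM + 1 (x axis) with its 95% interval (line) for each of the 8 genes (rows), in LPN against SPN, EPN against SPN and LPN against EPN (panels). Filled points passed an adjusted p of 0.05, which were Zfp352 and Zfp353-ps in LPN against SPN, and the dashed line is the median of all tested genes.

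Later and early transfer were set against each other to ask whether the timing of transfer matters for these transcripts. No member passed with limma in LPN against EPN, where 1.53% of all tested genes did (0.692% higher and 0.84% lower in LPN). An unadjusted limma p under 0.05 was found for 1 member (19.3% of all genes). Both edgeR and DESeq2 called 0 members, beside 17 and 926 of all 14876 genes. Zfp353-ps had the largest difference, 231 ± 74.0 CPM in LPN and 136 ± 4.69 CPM in EPN (log2 change 0.70, SE 0.33, 95% interval 0.04 to 1.37, adjusted p = 0.233). The groups did not overlap for Zfp353-ps and Sp110, with LPN higher, and for Spz1, with LPN lower, against 26.6% of all genes, 11.3% with LPN higher and 15.3% with LPN lower. For Zfp352 the log2 change was 0.28 (95% interval -0.31 to 0.86, limma adjusted p = 0.627), an interval that includes a 1.5-fold rise as well as no change.

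Several of these results shifted with a single sham library, SPN A. SPN A was 1.93-fold above the mean of SPN B and SPN C for Zfp352, 2.06-fold for Zfp353-ps, 2.95-fold for Arg2 and 2.42-fold for Nelfa. It was 3.55-fold below this mean for Spz1 and 3.24-fold for Lmx1a. On the log2 scale the difference exceeded that of 94.2% of all tested genes in size for Spz1, 90.2% for Arg2, 87.8% for Lmx1a and 81.7% for Nelfa. The share was 71.8% for Zfp353-ps, 67.9% for Zfp352, 48.1% for Ddit4l and 18.9% for Sp110, and the median gene differed by 0.65 in size. Of the libraries, SPN A also lay nearest to EPN along the main axis of variation, at -2.0 where EPN ran from -29.4 to 7.3, SPN B and SPN C lay at -50.6 and -84.6, and LPN from 36.8 to 77.9. Why this library stands apart was not tested.

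Without SPN A, 4 members were called in LPN against SPN, beside 18.4% of all tested genes (6.59% higher and 11.8% lower in LPN). Zfp352 (log2 change 1.45, limma adjusted p = 0.000767), Zfp353-ps (2.52, adjusted p = 4.99e-05) and Arg2 (1.39, adjusted p = 0.00114) were higher in LPN, and Spz1 was lower (-1.08, adjusted p = 0.015). In EPN against SPN 3 were then called, all higher in EPN, beside 3.03% of all genes (1.84% higher and 1.2% lower in EPN): Zfp352 (log2 change 1.17, limma adjusted p = 0.0134), Zfp353-ps (1.81, adjusted p = 0.00234) and Arg2 (1.18, adjusted p = 0.0156). In LPN against EPN no member was called without SPN A, beside 5.12% of all genes (2.08% higher and 3.04% lower in LPN). Without LPN C, SPN B or SPN C the call of Zfp352 in LPN against SPN ended (log2 change 0.91, 0.97 and 0.98; limma adjusted p = 0.0606, 0.0812 and 0.119), while Zfp353-ps stayed called with each of the 9 libraries left out. SPN A lay above SPN B and SPN C for Zfp352, Zfp353-ps and Arg2 and below them for Spz1. Leaving it out therefore had to widen the changes of these genes, so the calls added without it are no separate support. Leaving a library out also leaves fewer samples in the fit.

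**Figure D4:**
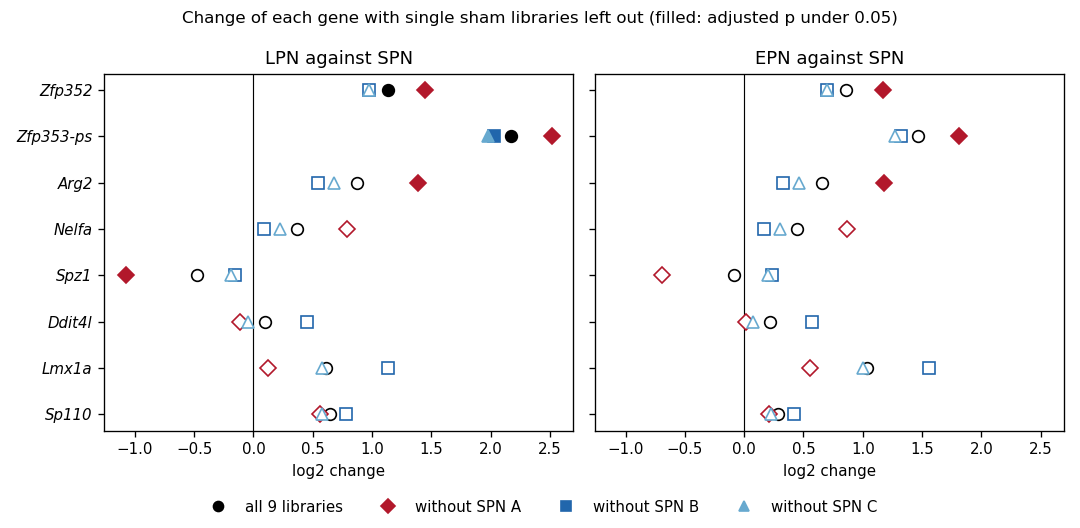
Log2 change (x axis) of each of the 8 genes (rows) in LPN against SPN and EPN against SPN (panels), fitted with all 9 libraries or with 1 sham library left out (symbols); filled symbols have an adjusted p under 0.05. Without SPN A, Zfp352, Zfp353-ps and Arg2 are called in both panels and Spz1 in LPN against SPN, where it lies at -1.08.

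Levels per length gave the order of the members, using merged exon lengths of GENCODE vM21, which may differ from the authors' annotation. Zfp352 was the highest in each group, at 357 ± 104 CPM per kb in LPN, 288 ± 23.2 CPM per kb in EPN and 167 ± 68.3 CPM per kb in SPN (SD, n = 3 each). Arg2, Ddit4l, Spz1 and, in LPN and EPN, Zfp353-ps followed at 77.3 to 159 CPM per kb in LPN, 82.4 to 136 in EPN and, without Zfp353-ps, 99.3 to 120 in SPN. In SPN, the levels per kb of Arg2, Ddit4l and Spz1 differed by less than their SDs of 46.8 to 68.0 CPM per kb. Zfp353-ps stood at 140 ± 44.9 CPM per kb in LPN and 31.2 ± 14.1 in SPN, where it lay beside Sp110 at 33.4 ± 5.81. Nelfa (17.5, 17.0 and 13.5 CPM per kb in LPN, EPN and SPN) and Lmx1a (11.2, 9.26 and 5.15) were the lowest.

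Members varied together in 2 ways within groups. As a description over 9 libraries, with group means removed, log2 levels of Zfp352 correlated with those of Nelfa (Pearson r = 0.872), Arg2 (0.825) and Zfp353-ps (0.675), and those of Arg2 ran against Spz1 (-0.922). Lmx1a went with Sp110 (0.967) and Ddit4l (0.72). In SPN A the first 4 were above and Spz1 below the other sham libraries. In LPN C Lmx1a, Sp110 and Ddit4l had their highest LPN values, but so did Zfp352 and Nelfa. The points share library depth and scaling, and 9 libraries are few.

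The tested genes most like each member over the 9 libraries were found among 9147 genes with a mean of 5 CPM or more and a full gene name, over the same 9 libraries that show the differences. For Zfp352 they were the phosphomannomutase gene Pmm1 (Pearson r = 0.977), the RNA export factor gene Nxf2 (0.976) and Mcm4, a subunit of the replicative helicase (0.972). Pmm1 had 434, 377 and 621 CPM in LPN, 325, 388 and 389 CPM in EPN, and 322, 226 and 217 CPM in SPN, again with SPN A above the other sham libraries. For Zfp353-ps the nearest were Plac9 (0.97), Oard1 (0.968) and Mtch2 (0.962), and for Arg2 they were Nono, a paraspeckle protein gene (0.978), Cops4 (0.965) and Fbxo5, which encodes an inhibitor of the anaphase-promoting complex (0.957). Nelfa was most like the multi-copy deubiquitinase gene Usp17lc (0.955), Spz1 most like Fam120a (0.98) and Lmx1a most like Slc44a2 (0.963). Among the 3 most like Ddit4l were Son, a gene of nuclear speckles (0.918), and Mbd1, which encodes a methyl-CpG binding protein (0.909), and Sp110 came nearest to Alms1, a centrosome gene (0.952). All are among the highest 3 of 9147 values for their member.

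The other transcripts of the first wave were set beside the members. Of 34 tested genes of the multi-copy families Zscan4, Tcstv, Usp17l, Eif1ad, Tdpoz and Trim43, 13 rose in LPN against SPN and none fell with limma, and 21 did not pass, where 3.26% of all genes were called higher. Their median log2 change was 1.04, against -0.17 over all genes. Eif1ad7 rose 3.39-fold (824 ± 227 CPM in LPN and 238 ± 37.3 CPM in SPN, limma adjusted p = 0.000985), Eif1ad3 3.12-fold (adjusted p = 0.00191) and the deubiquitinase gene Usp17lb 3.21-fold (adjusted p = 0.00333). The counts of such genes below are followed in brackets by the number of all genes called higher. Leaving out SPN A gave 23 (980), SPN B 6 (158), SPN C 2 (40), LPN B 6 (73) and LPN C 7 (351). With edgeR 5 (193) were called and with the replicate block 18 (621). In EPN against SPN 1 of the 34 rose, Tdpoz8 (3.54-fold, limma adjusted p = 0.0266), where 0.0739% of all genes were called higher, and the median was 0.72. When SPN A was left out 12 were called higher and 1 lower, beside 1.84% and 1.2% of all genes. None was called when EPN A, EPN B, EPN C, SPN B or SPN C was left out. In LPN against EPN 1 rose, Trim43c (2.18-fold, limma adjusted p = 0.0389), where 0.692% of all genes were called higher. Its call depended on single libraries, since none of the 34 was called without EPN A, EPN C or any 1 of the LPN libraries. Without SPN A 4 of the 34 were called, all higher, beside 2.08% of all genes. Reads of these families can map to several members, so single values are uncertain.

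Of 17 tested activators of the 2-cell programme, 3 rose and 2 fell in LPN against SPN, where 3.26% of all tested genes were called higher and 5.54% lower. The homeobox genes Obox3 (2.76-fold, 1211 ± 102 CPM in LPN and 528 ± 386 CPM in SPN, limma adjusted p = 0.01) and Obox6 (2.28-fold, adjusted p = 0.0145) rose, and the Hippo pathway coactivator gene Yap1 fell 2.34-fold (adjusted p = 0.0278). The other two, named after their values were seen, were Dppa2, a chromatin-binding activator upstream of Dux, which rose (515 ± 46.9 CPM in LPN and 270 ± 107 CPM in SPN, SD, limma adjusted p = 0.0362), and Obox5, which fell (log2 change -0.96, adjusted p = 0.0438). Obox3 also had its highest sham value, 957 CPM, in SPN A, while SPN B was at 419 and SPN C at 208 CPM. Of 25 tested repressors, 2 rose and 2 fell in LPN against SPN, beside the same shares of all genes. Among them Max, the partner of MYC and MGA, fell 3.85-fold (limma adjusted p = 0.00333), Mga rose 1.88-fold (adjusted p = 0.0336), and Sumo2, named after its values were seen, rose (log2 change 0.98, adjusted p = 0.0337). With edgeR none of the activators and 1 repressor, which fell, were called. When 1 library was left out, the activators that rose numbered 0 to 5 and the repressors 0 to 4, and those that fell numbered 0 to 1 and 0 to 2.

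**Figure D5:**
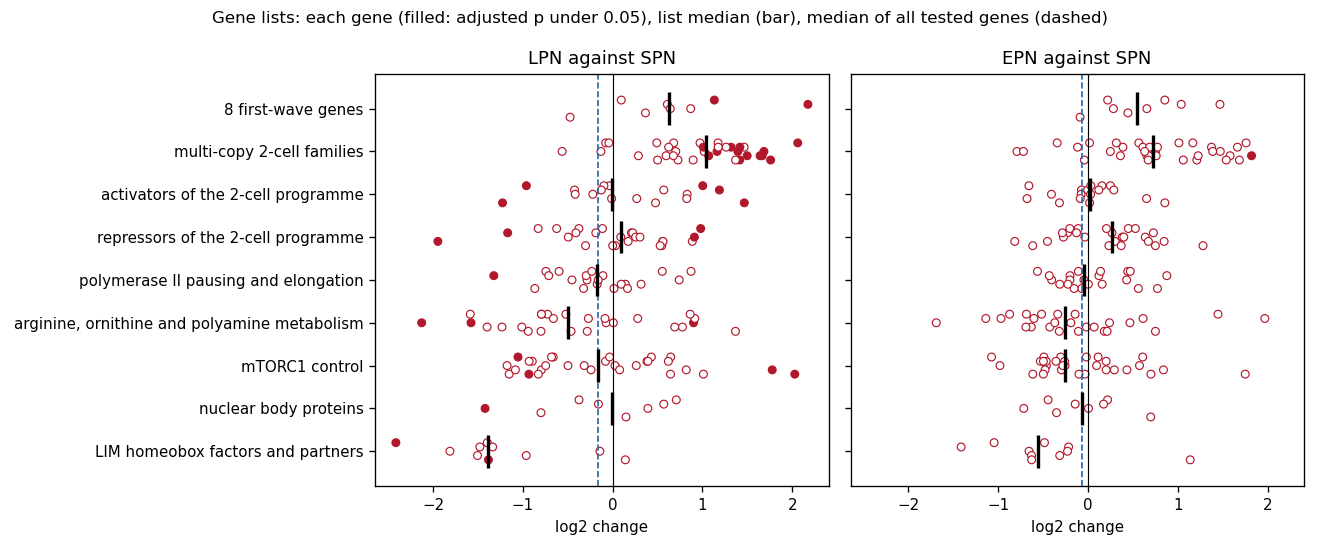
Log2 change (x axis) of each tested gene in the 8 first-wave genes and 8 gene lists (rows), in LPN against SPN and EPN against SPN (panels). Filled points passed an adjusted p of 0.05, black bars are list medians and the dashed line is the median of all tested genes. The multi-copy families have medians of 1.04 and 0.72, and the medians of the other 7 lists lie between -1.39 and 0.27.

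The lists around single members gave few calls, and their counts in LPN against SPN stand beside 8.8% of all tested genes called, 3.26% higher and 5.54% lower. Around Nelfa, 1 of 21 tested genes of polymerase II pausing and elongation fell in LPN against SPN and none rose with limma. The other subunits of the complex, named as partners of Nelfa and outside the rule for named genes, did not pass, with log2 changes of -0.60 for Nelfb (limma adjusted p = 0.514), -0.11 for Nelfcd (0.908) and -0.29 for Nelfe (0.629). Paf1, a subunit of an elongation complex, fell 2.26-fold in LPN against EPN (limma adjusted p = 0.0412), a call that ended with edgeR, with median-of-ratios scaling and without EPN A, EPN B, EPN C, LPN A or LPN B. Around Arg2, 1 of 26 genes of arginine, ornithine and polyamine metabolism rose and 2 fell in LPN against SPN. The spermidine acetyltransferase gene Sat1 rose 1.87-fold (limma adjusted p = 0.0352), and the mitochondrial ornithine carrier gene Slc25a15 fell 2.98-fold (adjusted p = 0.00801). The arginine transporter gene Slc7a1 fell (limma adjusted p = 0.0299) at low levels of 0, 0 and 1.34 CPM in LPN and 3.44, 6.56 and 4.81 CPM in SPN. In EPN it had 0.867, 0.781 and 0.749 CPM, so it passed the filter only because of SPN, where it was high. Its fall was thus favoured by the filter and adds no support to the count of this list.

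Around Ddit4l, 2 of 30 genes of mTORC1 control rose and 2 fell in LPN against SPN, beside 3.26% of all tested genes called higher and 5.54% lower. The arginine sensor gene Castor1 rose 3.43-fold (106 ± 13.5 CPM in LPN and 30.8 CPM on average in SPN, limma adjusted p = 0.00318) and the S6 kinase gene Rps6kb2 4.08-fold at low levels (7.68 ± 1.93 CPM in LPN and 1.40 ± 1.56 CPM in SPN, adjusted p = 0.0407), while the mTOR inhibitor gene Deptor fell 2.08-fold (adjusted p = 0.045). Rragc, named after its values were seen, also fell (log2 change -0.93, limma adjusted p = 0.0465). Among 8 nuclear body genes around Sp110, Hipk2, a nuclear kinase gene, fell 2.68-fold (limma adjusted p = 0.041). Of 10 tested LIM homeobox genes and partners around Lmx1a, 2 fell, Lhx1 (0.647 ± 0.685 CPM in LPN and 7.70 ± 3.07 CPM in SPN, limma adjusted p = 0.0215) and Ssbp3 (2.61-fold, adjusted p = 0.0295), and the list median was -1.39. Both counts stand beside the 5.54% of all tested genes called lower in LPN against SPN. The LIM list holds genes near the filter. Lhx2 had 2.44, 2.84 and 4.55 CPM in SPN, stayed under 1 CPM in every EPN library and exceeded it in LPN only in LPN C (1.42 CPM). It thus passed the filter only because of SPN, where it was high. Such genes pull the LIM list median down, so no result is drawn from it. No gene of these 5 lists, nor of the activators and repressors, passed with limma in EPN against SPN. When 1 library was left out, LPN against SPN gave 0 to 2 genes that rose and 0 to 6 that fell in the arginine list, and 1 to 2 that rose and 0 to 4 that fell in the mTORC1 list. It gave 0 to 4 that fell in the LIM list, 0 to 1 in the nuclear body list and 0 to 2 in the elongation list. None of the genes of the mTORC1 and nuclear body lists was called lower with edgeR or with median-of-ratios scaling, and none of the LIM list with edgeR.

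The promoters with at least 3 copies of TTAATC and with TATAAGG belonged to 20 gene symbols, since some genes have the same promoter sequence, with 11 symbols in the table and 10 tested. Of the 10, Zfp352 and Pemt, a gene of phosphatidylcholine synthesis, rose in LPN against SPN. The motifs were picked from the windows of Zfp352 and Sp110, so these 2 are in the group by choice, and the call of Zfp352 was already known. The count of 2 of 10 therefore cannot be set against the 3.26% of all genes called higher. Pemt had 539.5 CPM in LPN and 245 CPM in SPN on average (log2 change 1.14, SE 0.27, limma adjusted p = 0.00964). The other 8 did not pass in LPN against SPN, with log2 changes from -0.42 for Esp24 to 0.80 for Gm12790. None of the 10 passed with limma in EPN against SPN or in LPN against EPN. This group was formed, and its genes named, after the promoters had been read.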

How the data were processed

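The deposited table holds CPM, made by the authors, for 19359 genes in 9 libraries. The submitters' processing notes name GRCm39, HISAT2 2.2.1, Trim Galore 0.6.7, edgeR and R 3.3.3; how reads were assigned to genes is not given in the sources used here. Per the labels, cDNA came from the Smart-seq2 v4 kit. In every library 100% of values were whole multiples of 1 step within 0.01 reads, which gave back whole reads and library totals; genes of the table took up all but 3.66% to 5.68% of these totals.

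Genes reaching 1 CPM in 3 or more libraries were fitted as log2(CPM + 1) by limma 3.58.1 (R 4.3.3) in 1 model of the 9 libraries, with a trended prior of 25.9 degrees of freedom beside 6 residual ones. P-values are two-sided and adjusted by Benjamini-Hochberg over all 14876 genes, with a call under 0.05. The added 1 CPM makes folds of low genes too small. Alternatives were edgeR 4.0.16 (quasi-likelihood) and DESeq2 1.42.0 on the recovered reads, a pseudocount of 0.1 CPM, other filters, median-of-ratios scaling, 2-group fits, array weights, the replicate letter as a block and each library left out. The code was tested on simulated data. The members and lists were chosen with earlier results of these data known. Named genes are the members, up to 3 called genes per list and comparison by adjusted p, and the 3 genes most like each member; others are marked or are genes that share sequence with a member, and some named by this rule are not reported here. Promoters are RefSeq's and coordinates GRCm38.p6, not the authors' build; 6 of 8 members matched by symbol. Intervals cover the spread between libraries, and without molecular identifiers reads may be copies of 1 molecule.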

Additional observations from a re-analysis of the deposited data

How the results depend on the processing

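Of the 8 members, 2 were called in LPN against SPN as reported, where 1309 of 14876 genes were. The count was 1 without a filter on low values (494 of 19189 genes called) and with edgeR (477 of 14876). It was 3 with DESeq2 (1890 of 14876), which added Sp110, and 4 with array weights (2731 of 14876). Calls over all genes thus moved in the same direction. In EPN against SPN the count of 0, beside 16 of 14876 genes, became 1 with genes averaging under 5 CPM left out (19 of 9819). It was also 1 with DESeq2 (116 of 14876), and 2 with array weights (313 of 14876). With single libraries left out the count of members ran from 1 to 4 in LPN against SPN, where 96 to 2733 of all genes were called. It ran from 0 to 3 in EPN against SPN (0 to 451 genes) and stayed at 0 in LPN against EPN (4 to 762 genes). Zfp353-ps was called in LPN against SPN under all 18 alternatives (log2 change 1.98 to 2.52), and Zfp352 under 13 (0.91 to 1.45). Same-letter libraries deviated together with correlations of -0.024 to 0.092 over genes, none of 9 over 0.1. Libraries of different letters had correlations of -0.1 to 0.096. The main fit does not pair libraries by letter, and these values do not settle whether the letters carry a pairing. With the replicate block 2 members were called in LPN against SPN (1644 of all genes) and 0 in EPN against SPN (25) and LPN against EPN (480).

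Directions turned only for members without a call. For LPN against SPN array weights gave -0.25 for Ddit4l and -0.18 for Lmx1a. In LPN against EPN median-of-ratios scaling gave 0.0473 for Nelfa and 0.00542 for Ddit4l, edgeR 0.11 for Nelfa and 0.28 for Lmx1a, and DESeq2 0.13 and 0.29. With single libraries left out the values ran from -0.69 to 0.23 for Spz1 and from -0.0840 to 0.57 for Ddit4l in EPN against SPN. For LPN against SPN they ran from -0.00326 to 0.79 for Nelfa, -0.20 to 0.45 for Ddit4l and -0.36 to 1.13 for Lmx1a, and in LPN against EPN from -0.45 to 0.33 for Nelfa, -0.42 to 0.18 for Ddit4l and -1.40 to 0.0755 for Lmx1a. The cause was not tested. Median-of-ratios scaling brought the median of all genes in LPN against SPN to -0.03.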
